A study of Mus musculus with 4 samples.

Results

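The 10 genes described here are known for reactive glia and the glial scar, the state that astrocytes and related support cells enter after injury. They are *Osmr*, *Stat3*, *Socs3*, *Serpina3n*, *Timp1*, *Steap4*, *Cd44*, *Vim*, *Gfap* and *Nes*, out of 29977 genes on the array. Members were found by name, as all non-control probes that the scanner files assign to one of these genes, which gave 16 of 39429 probes. No measured value entered that rule, but the genes were proposed with earlier results of these data known, and their counts are therefore given as a description. *Timp1*, *Osmr* and *Socs3* also stand in the study's own list of upregulated genes, which was drawn from these same arrays, so that their direction is not independent evidence.

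The cochlea, the hearing organ of the inner ear, was taken from C57BL/6J mice at 5 weeks of age, with 4 females and 4 males in each of 4 groups. The groups were wild-type mice without and with diphtheria toxin (DT) and *Prestin*-*hDTR* mice without and with it, and the treated mice had received 50 μg/kg of DT into the peritoneum 7 days before dissection. *Prestin*-*hDTR* mice, labelled OHC-TRECK, carry the human receptor for DT (human HB-EGF with an altered EGF-like domain) under the promoter of *Slc26a5*, the gene of the outer hair cell motor protein prestin, so that outer hair cells (OHCs) become sensitive to the toxin. The transgene is present in both *Prestin*-*hDTR* groups, treated or not, and all mice of these groups come from 1 transgenic line. RNA of a group was pooled and hybridised in 1 colour to 1 Agilent mouse array per group, and all 4 arrays lay on 1 slide.

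With 1 array per group there is no replicate, no test between groups and no p-value, and precision is limited by that number throughout. In every series of 4 levels below, the order is wild-type mice without DT, wild-type mice with DT, *Prestin*-*hDTR* mice without DT and *Prestin*-*hDTR* mice with DT. In every series of 3 ratios, *Prestin*-*hDTR* mice with DT are set against *Prestin*-*hDTR* mice without DT, then against wild-type mice with DT and then against wild-type mice without DT. A level is the log2 of a probe's intensity over the 75th percentile of its array, so that 0 means a signal equal to that percentile, and levels are compared between arrays for the same probe only. The intensity at the 75th percentile was 2728 to 3162 on the 4 arrays, the share of probes well above background (a flag of the scanner software) was 62.2% to 70.6%, and saturation was not seen (0 spots). A ratio of 2-fold or more (1 on the log2 scale) was called higher or lower. The only errors available are technical. The scanner software gives an error of about 0.20 for a log2 ratio of a bright probe, and repeated spots within the arrays correspond to 0.10. Neither covers the spread between mice. Since whole cochleae were used, a change in the number of cells of a type and a change in RNA per cell cannot be told apart.

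The signal of OHCs was lower in *Prestin*-*hDTR* mice with DT. All but 1 of 10 OHC markers were well above background on every array, and the exception, *Slc26a5*, was not on that of *Prestin*-*hDTR* mice with DT. In these mice 8 markers were 2-fold or more lower than on each other array, and the summed intensity of the list, in units of the 75th percentile, was 6.34 against 26.0 to 28.3. Of 10 macrophage markers, 5 (*Adgre1*, *Cd68*, *Mpeg1*, *Lyz2* and *Cd14*) were 2-fold or more higher in *Prestin*-*hDTR* mice with DT than in each other group, and the summed intensity of that list was 29.3 against 18.8 to 23.4. All 10 macrophage markers were well above background on all 4 arrays, and *Itgam*, a further one, was lower there (log2 ratio -0.24, -0.35 and -0.75 in the 3 comparisons). The part of these cells in the values of the 10 genes was not tested.

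Reactive glia are best known from the brain and spinal cord, where astrocytes near a lesion thicken their intermediate filaments and secrete proteins that border the damage. A main route to this state runs through cytokines of the interleukin-6 family. Oncostatin M binds its receptor OSMR together with gp130, Janus kinases phosphorylate STAT3, STAT3 enters the nucleus and binds its target genes, and SOCS3, itself a product of such a target, shuts the receptor off. In the cochlea, the supporting cells, which close the gap when hair cells die, contain GFAP and vimentin filaments, and Schwann cells and satellite cells surround the neurons.

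The following sequences are shown because the values of the leading genes rest on 1 probe each. They are the first 30 of the 60 bases of the probes, 5′ to 3′, for the 4 genes that were 2-fold or more higher in *Prestin*-*hDTR* mice with DT than in every other group and for 2 genes known for reactive glia that were not, and no base is set in capitals because the probes hold no special site.
Serpina3n: ttggcatgcctggattagatagtgactaac
Timp1: tacttttcctccatctttctttctcttaga
Osmr: attgcagatgctctgtttacattttcttgt
Socs3: ccttcgaggctgtctgaagatgcttgaaaa
Steap4: actgcaacaaaattggtttgaagtagctgt
Gfap: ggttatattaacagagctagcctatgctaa
In the mm9 build used by the array files, the probes lie at chr12:105651918-105651977 on the plus strand (*Serpina3n*), chrX:20451802-20451861 (*Timp1*), chr15:6763686-6763745 on the minus strand (*Osmr*), chr11:117827480-117827539 on the minus strand (*Socs3*), chr5:7981239-7981298 on the plus strand (*Steap4*) and chr11:102751813-102751872 on the minus strand (*Gfap*). The exon or UTR was not assigned, because no annotation of that build was used here.

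Of the 16 probes, 13 had a signal well above background on all 4 arrays, 1 (*Serpina3n*) on the array of *Prestin*-*hDTR* mice with DT only, and 2 further *Cd44* probes on none. Every gene thus had a usable probe, and for *Cd44*, *Stat3* and *Gfap*, which had more than 1, the probe with the highest mean over the arrays stands for the gene. None of the spots of these probes was marked as an outlier (a count of 0).

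In *Prestin*-*hDTR* mice with DT, 4 of the 10 genes (*Serpina3n*, *Timp1*, *Osmr* and *Socs3*) were 2-fold or more higher than in untreated *Prestin*-*hDTR* mice, and 0 were 2-fold lower. Among all 19987 genes compared in this way, 2.91% were higher and 1.52% were lower. The same 4 genes were 2-fold higher against wild-type mice with DT (background 1.52% higher and 1.94% lower) and against those without DT (2.15% and 2.08%). All 3 comparisons use the array of *Prestin*-*hDTR* mice with DT, so that they are not independent of each other. *Serpina3n* entered them only through that array, where it is high, and under the floor rule it could not be called lower. Its place in the count is therefore no support. Among the 9 genes measured on all arrays, *Timp1*, *Osmr* and *Socs3* were the ones called. Of all genes, 1.22% were higher and 0.293% lower against each of the 3 other arrays at once.

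The median log2 ratio of the 10 genes was 0.58, 0.47 and 0.51, beside medians close to 0 over all genes compared (-0.013, 0.010 and -0.030). Over the genes well above background on both arrays of a comparison, the SDs were 0.36, 0.33 and 0.36. *Prestin*-*hDTR* mice with DT had the highest of the 4 levels for 7 of the 10 genes and the lowest for 0, where 34.4% of all genes had their highest and 34.8% their lowest level on this array. The remaining 3 genes were *Steap4*, *Gfap* and *Nes*. *Serpina3n* is among the 7 and could only be highest under the floor rule, and the medians include its lower bounds.

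**Figure D1:**
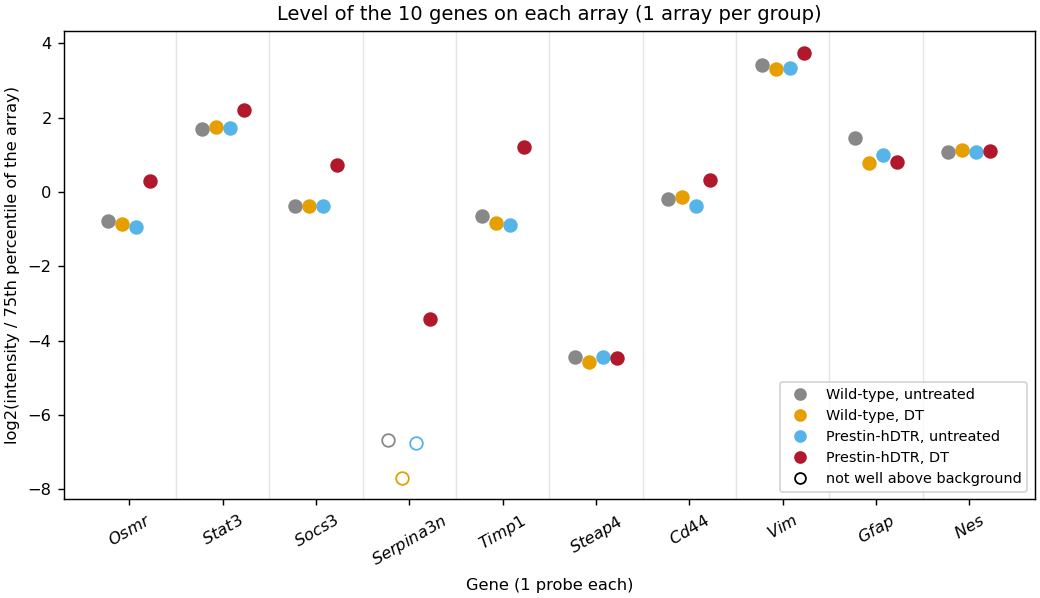
Level of the 10 genes on each of the 4 arrays, as log2 of intensity over the 75th percentile of the array, with 1 point per array and 1 probe per gene. Open points were not well above background. The point of *Prestin*-*hDTR* mice with DT stands above the other 3 for *Osmr*, *Stat3*, *Socs3*, *Serpina3n*, *Timp1*, *Cd44* and *Vim*, and the heights of different genes are not comparable.

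*Osmr*, the specific subunit of the oncostatin M receptor, had levels of -0.79 and -0.86 in wild-type mice without and with DT, and of -0.95 and 0.30 in *Prestin*-*hDTR* mice without and with it. The first 3 arrays lay within 1.12-fold of each other. The gene was 2.38-fold higher after DT than without it in *Prestin*-*hDTR* mice, and 2.22-fold and 2.12-fold higher than in wild-type mice with and without DT. On the log2 scale these ratios are 1.25, 1.15 and 1.09, and the last 2 pass the 2-fold limit by less than the technical error of about 0.20.

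The other receptor subunits of the family stayed under the 2-fold limit. Of 6 receptor genes, *Osmr* was the only one called in any of the 3 comparisons, and the median of the list was -0.02, -0.06 and -0.08. *Il6st*, which encodes the shared signalling subunit gp130, had log2 ratios of 0.16, 0.10 and 0.08, and *Lifr*, the receptor of leukaemia inhibitory factor, of -0.05, -0.19 and -0.14. *Cntfr*, the receptor of ciliary neurotrophic factor, had the largest ratio after *Osmr* in the first comparison, and it lay on the low side (-0.45, -0.80 and -0.43).

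Among 9 cytokines of the family, *Osm*, the ligand of *Osmr*, and *Lif* were not well above background on any array. *Il6* was so on 1 array only, that of untreated *Prestin*-*hDTR* mice, and no ratio is given for it. None of the 6 cytokines compared was called (a count of 0), although their median ratio was 0.23, 0.37 and 0.27. *Ctf1* (cardiotrophin 1) had ratios of 0.40, 0.46 and 0.51, and *Clcf1* (cardiotrophin-like cytokine factor 1) of 0.26, 0.37 and 0.44.

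*Stat3*, the transcription factor of the pathway, was measured by 10 spots of its brighter probe on every array, while each probe of the other members has 1 spot. Its levels were 1.71 ± 0.048, 1.74 ± 0.024 and 1.74 ± 0.024 on the 3 control arrays and 2.21 ± 0.027 in *Prestin*-*hDTR* mice with DT (SD over 10 spots of 1 array). The spots of the first 3 arrays ranged from 1.62 to 1.79 and those of the last from 2.17 to 2.24. The ratio was 1.39-fold, 1.39-fold and 1.42-fold, below the 2-fold limit in each comparison. Spots of an array share 1 pool of RNA and are not replicates of the group.

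A second, dimmer *Stat3* probe (levels -4.36, -4.41, -4.36 and -4.16) gave 1.16-fold, 1.19-fold and 1.15-fold, a smaller ratio on the same side, and its technical error of 0.25 to 0.29 in log2 is as large as these ratios. The probes lie at chr11:100749598-100749657 and chr11:100759946-100760005 of mm9, both on the minus strand. None of the other 6 kinases and factors in the list of Janus kinases and STATs was called either (a count of 0 over the 3 comparisons).

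**Figure D2:**
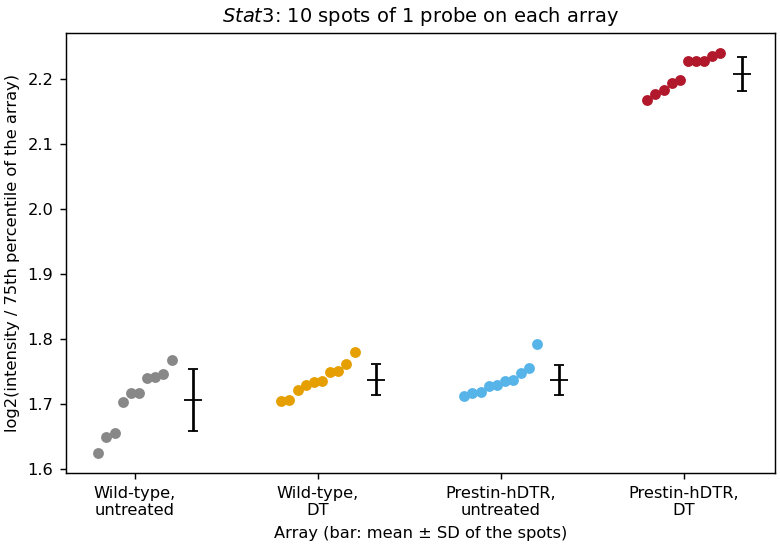
The 10 spots of the brighter *Stat3* probe on each array, as log2 of intensity over the 75th percentile, with the mean and SD of the spots as a bar beside them. The spots of *Prestin*-*hDTR* mice with DT lie between 2.17 and 2.24 and those of the other 3 arrays between 1.62 and 1.79.

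*Socs3*, the feedback inhibitor of this receptor, had levels of -0.36, -0.39 and -0.38 on the 3 other arrays and of 0.72 in *Prestin*-*hDTR* mice with DT. The 3 lower values lay within 1.02-fold of each other. Its ratios were 2.15-fold, 2.16-fold and 2.12-fold, just past the 2-fold limit and by less than the technical error. Of the 8 genes for SOCS proteins, *Socs3* was the only one called in these comparisons, and *Socs1*, an inhibitor of Janus kinases, followed with log2 ratios of 0.42, 0.56 and 0.33.

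A list of 16 genes known as STAT3 targets, which holds *Socs3*, had a median ratio of 0.50, 0.29 and 0.52 over the 13, 14 and 13 genes compared. The genes called higher numbered 3, 2 and 2, and those called lower 0, 2 and 0. *Myc*, a transcription factor of growth, was 2-fold higher against each array besides *Socs3* (log2 ratios 1.29, 1.07 and 1.03), and *Bcl3*, a regulator of NF-kappaB, had ratios of 0.75, 0.75 and 0.90. *Lcn2* (lipocalin 2, an iron-scavenging protein) gave a different picture, with 2.02 against untreated *Prestin*-*hDTR* mice but -0.16 against wild-type mice with DT.

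A search of the 250 bases before the start of each gene (RefSeq, GRCm38.p6) for the STAT motif TTCNNNGAA, which reads the same on both strands, found it in the promoters of *Socs3* and *Steap4*, 2 of the 10 genes. It was present in 7.02% of 32851 promoters of the same length. The AP-1 motif TGANTCA, likewise searched on both strands, stood in 0 of the 10 and in 6.75% of all, so that no match of one overlaps the other here. These 2 promoters are shown because one belongs to a gene that was 2-fold higher in *Prestin*-*hDTR* mice with DT and the other to a gene that was not. They are written 5′ to 3′ on the strand of the gene, with the motif in capitals, for *Socs3* at chr11:117969367-117969616 (minus strand) and for *Steap4* at chr5:7960222-7960471 (plus strand) of GRCm38.p6.
Socs3: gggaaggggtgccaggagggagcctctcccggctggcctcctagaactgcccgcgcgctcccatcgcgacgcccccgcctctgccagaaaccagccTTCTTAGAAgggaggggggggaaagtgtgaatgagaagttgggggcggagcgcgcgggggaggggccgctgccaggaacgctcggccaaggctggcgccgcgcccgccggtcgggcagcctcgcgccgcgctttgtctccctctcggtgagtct
Steap4: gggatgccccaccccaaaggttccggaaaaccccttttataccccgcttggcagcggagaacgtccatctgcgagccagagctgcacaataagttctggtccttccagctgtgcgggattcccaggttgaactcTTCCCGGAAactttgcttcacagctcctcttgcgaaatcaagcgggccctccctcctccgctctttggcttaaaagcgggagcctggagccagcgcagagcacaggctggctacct
The match begins 154 bases before the start of *Socs3* and 116 bases before that of *Steap4*. A match of letters is not a binding site shown by these data.

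*Serpina3n*, a secreted serine protease inhibitor widely used as a marker of reactive astrocytes, had a raw intensity of 26.9 and 15.1 in wild-type mice without and with DT, and of 27.9 and 291 in *Prestin*-*hDTR* mice without and with it. Only the last was well above background, and the 3 others lie below the lowest intensity that was so on their arrays (44.8, 70.9 and 35.9). Against these floors, each scaled to its array, the gene was at least 7.84-fold higher than in the untreated mice of the same genotype, at least 4.16-fold higher than in wild-type mice given DT and at least 5.68-fold higher than in those without it. The values are lower bounds with no order among them, since they depend on the floor of each array.

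Without a floor the *Serpina3n* ratios would be 10.1, 19.5 and 9.48. With the normexp background correction in place of that of the scanner software, the bounds were 3.97-fold, 4.60-fold and 3.15-fold. The gene stayed past 2-fold under each alternative that gave it a value.

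*Serpina3n* belongs to a cluster of closely related genes on chromosome 12. Of 11 genes of the SERPINA3 family on the array, 5 were not well above background on any array, and *Serpina3n* was the only one called higher. *Serpina3m* went the other way, and was at least 2-fold lower against both untreated groups (log2 bounds -1.02 and -1.15), with -0.60 against wild-type mice with DT. Whether the probe of one family member also binds RNA of another was not tested.

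The 5 genes whose pattern over the 4 arrays was nearest to that of *Serpina3n*, out of 18232 genes well above background on all arrays, were *Ddx43*, *Lgals3*, *Apoc2*, *Sirpb1b* and *Gm10433*. The distance, taken between log2 levels after subtraction of each gene's mean, was 0.21 for *Ddx43*, a DEAD-box RNA helicase, 0.30 for *Lgals3* and 0.47 for the last. *Lgals3*, which encodes galectin 3, had levels of 0.38, 0.67, 0.14 and 2.77, or a 6.18-fold difference between treated and untreated *Prestin*-*hDTR* mice. Of the 4 values of *Serpina3n* used in this distance 3 are floors, and the likeness is a description over 4 arrays. *Ddx43* itself had levels of -5.76, -5.35 and -5.99 on the 3 control arrays, near their floors of -5.93, -5.48 and -6.39. The study could not detect *Ddx43* or *Gm10433* by quantitative RT-PCR.

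*Timp1*, a secreted inhibitor of matrix metalloproteinases, had the largest ratios among the 9 members measured on all arrays. Its levels were -0.65 and -0.82 in wild-type mice without and with DT, and -0.89 and 1.21 in *Prestin*-*hDTR* mice without and with it. *Prestin*-*hDTR* mice with DT were higher by 4.30-fold, 4.10-fold and 3.64-fold, and the 3 lower arrays lay within 1.18-fold. Among genes measured on both arrays it ranked 38 of 18622, 16 of 18270 and 38 of 18537 from the top. *Osmr* ranked 213, 101 and 178 and *Socs3* 285, 110 and 180 in the same comparisons.

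None of the other TIMP genes was called (a count of 0). *Timp2* had log2 ratios of 0.23, 0.22 and 0.24 and *Timp3* of 0.05, -0.08 and 0.07, while *Timp4* lay on the low side at -0.51, -0.20 and -0.73. Of the metalloproteinases they inhibit, 8 genes were listed and 0 were higher in any of the 3 comparisons, while 0, 3 and 1 of the 4, 5 and 6 compared were lower. Against wild-type mice with DT the lower genes were *Mmp8*, the neutrophil collagenase (log2 ratio -1.34), *Mmp9*, a gelatinase (log2 bound -1.25), and *Mmp13*, and against those without DT *Mmp13* alone. *Mmp14*, a membrane-bound enzyme, had ratios of 0.49, 0.36 and 0.35. *Mmp13*, a collagenase, had no signal well above background in *Prestin*-*hDTR* mice with DT, with log2 bounds of -0.95, -1.55 and -3.02, but its level also differed between the 3 other arrays (-2.42, -3.89 and -4.50).

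*Steap4*, a metalloreductase of the endosome and one of the genes commonly used to define reactive astrocytes, had the same level on all arrays within its error. The levels were -4.45, -4.58, -4.45 and -4.46, and the log2 ratios of *Prestin*-*hDTR* mice with DT were -0.01, 0.12 and -0.01, with a technical error of 0.30 to 0.34 for this dim probe. Nothing past that error was detectable. The related *Steap1* had ratios of 0.49, 0.69 and 0.70 and *Steap2* of -0.29, -0.14 and -0.23, and neither was called.

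*Cd44*, the cell surface receptor for hyaluronan and osteopontin, had levels of -0.20, -0.14, -0.37 and 0.33 with its brightest probe, or ratios of 1.62-fold, 1.38-fold and 1.44-fold. A second probe with signal on all arrays gave levels of -2.91, -2.74, -2.97 and -2.12 and ratios of 1.81-fold, 1.54-fold and 1.74-fold. *Prestin*-*hDTR* mice with DT were thus the highest with both probes (chr2:102651398-102651457 and chr2:102654278-102654337 of mm9, minus strand), and below 2-fold with both. *Spp1*, which encodes the ligand osteopontin, had log2 ratios of 0.39, 0.41 and 0.48, and among 9 genes for CD44 ligands and hyaluronan metabolism 0 of the 6 or 7 compared were called.

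*Vim*, which encodes the intermediate filament vimentin, had levels of 3.43, 3.30, 3.34 and 3.76. *Prestin*-*hDTR* mice with DT were again the highest, by 1.34-fold, 1.37-fold and 1.26-fold, while the other 3 arrays lay within 1.09-fold. The differences exceed the technical error but not the 2-fold limit.

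*Gfap*, the astrocyte filament after which the glial reaction is usually measured, did not follow *Vim*. Its levels were 1.45 and 0.77 in wild-type mice without and with DT, and 1.0 and 0.80 in *Prestin*-*hDTR* mice without and with it, so that the array that stood apart was that of untreated wild-type mice. *Prestin*-*hDTR* mice with DT were 1.56-fold lower than these, and DT-treated wild-type mice were 1.59-fold lower. Between the DT-treated groups the log2 ratio was 0.03, and between the *Prestin*-*hDTR* groups it was -0.20, which is within the technical error for this probe. In the comparison of DT-treated with untreated wild-type mice *Gfap* ranked 196 from the lowest of 18689 genes.

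Untreated wild-type mice had the highest *Gfap* level with its other probes as well, whose levels were -2.84, -3.40, -3.15 and -3.57 for one and -0.62, -1.30, -1.09 and -1.30 for the other. Between the *Prestin*-*hDTR* groups these probes gave log2 ratios of -0.42 and -0.22, past their technical errors of 0.23 and 0.21. *Prestin*-*hDTR* mice with DT were the lowest group with both, for the latter probe level with DT-treated wild-type mice. In mm9 the 3 probes lie at chr11:102751813-102751872, chr11:102752726-102752785 and chr11:102748864-102748923 on the minus strand. Other genes of astrocytes and myelin also had their highest level in untreated wild-type mice. *Aqp4*, the water channel of astrocytes and of some cochlear supporting cells, had levels of 0.98, 0.34, 0.54 and 0.05, *Olig1*, a transcription factor of the oligodendrocyte lineage, of -0.39, -1.15, -0.85 and -1.17, and *Mbp*, the myelin basic protein, of 2.38, 1.79, 1.96 and 1.71. The part of astrocyte or myelin RNA in the *Gfap* values was not tested.

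*Nes*, the filament nestin of progenitor cells, hardly varied, with levels of 1.07, 1.13, 1.09 and 1.11 and ratios of 1.02-fold, 1.01-fold and 1.03-fold. Over 10 intermediate filament genes, which include *Vim*, *Gfap* and *Nes*, 0 were called and the median log2 ratio was -0.15, -0.02 and -0.26. The largest ratio in the first comparison was that of *Prph*, the peripherin of peripheral neurons, at 0.63, with 0.81 and 0.05 in the others. Of 11 genes for the matrix of a glial scar, likewise 0 were called, with *Cspg4* (the NG2 proteoglycan) at 0.32, 0.31 and 0.47 and *Hapln1* (a hyaluronan link protein) at -0.52, -0.34 and -0.35, and *Tnc* had no signal well above background.

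**Figure D3:**
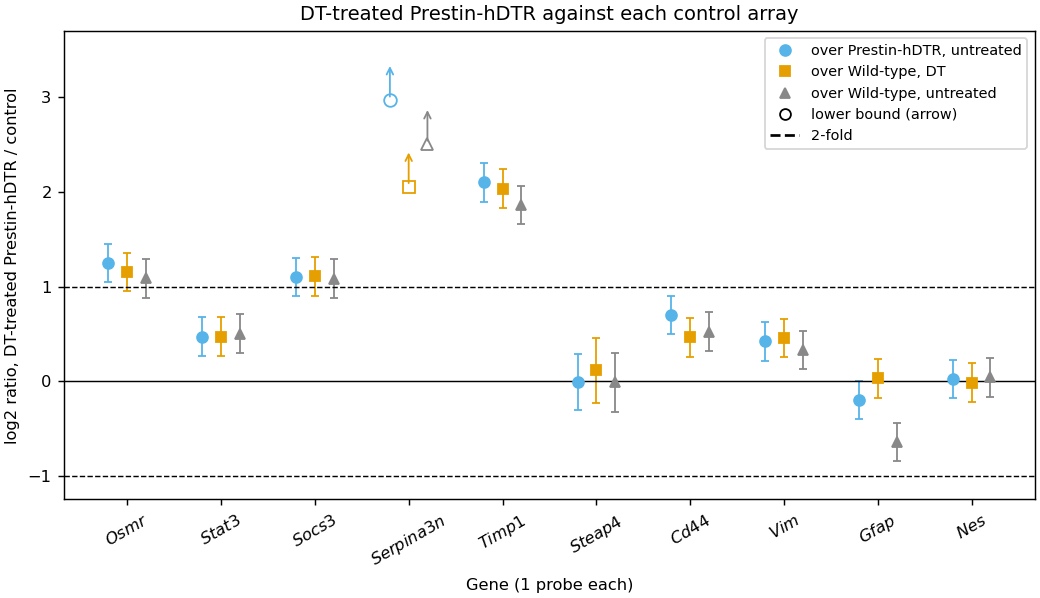
Log2 ratio of *Prestin*-*hDTR* mice with DT to each of the 3 other arrays for the 10 genes, with the error of the scanner software as a bar and the 2-fold limits dashed. Open symbols with arrows are the lower bounds of *Serpina3n*. *Osmr*, *Socs3*, *Serpina3n* and *Timp1* lie above the upper limit in all 3 comparisons, and no gene lies below the lower one.

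In the control comparisons, none of the 10 genes was called (0 of the 9 with a ratio, since *Serpina3n* was not well above background there). DT-treated and untreated wild-type mice differed by 2-fold in 1.57% (higher) and 1.14% (lower) of all genes, and the untreated mice of both genotypes in 1.05% (higher in *Prestin*-*hDTR*) and 2.5% (lower). The median log2 ratio of the 9 genes was -0.07 and -0.09, and the largest difference was that of *Gfap* in both (-0.67 and -0.44).

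The log2 ratio of DT-treated to untreated mice was then set side by side in the 2 genotypes, for the 9 genes measured on all arrays. The ratio in *Prestin*-*hDTR* minus that in wild-type mice was 2.27 for *Timp1*, 1.31 for *Osmr* and 1.13 for *Socs3*. It was 0.64 for *Cd44*, 0.55 for *Vim*, 0.47 for *Gfap* and 0.44 for *Stat3*. For *Steap4* and *Nes* it was 0.12 and -0.03. Among all 18232 such genes the median was 0.02 with an SD of 0.37, and 1.29% reached 1, as did 3 of the 9. The positive value of *Gfap* comes from a lower level after DT in wild-type mice and not from a higher one in *Prestin*-*hDTR* mice.

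**Figure D4:**
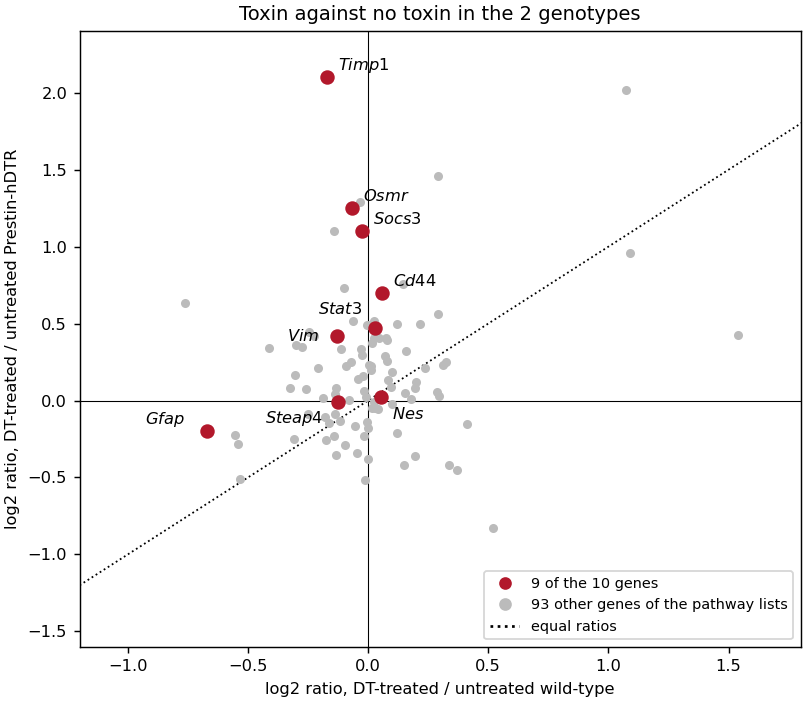
Log2 ratio of DT-treated to untreated mice in wild-type (horizontal) and *Prestin*-*hDTR* mice (vertical) for 9 of the 10 genes (red) and 93 other genes of the pathway lists (grey), with equal ratios as a dotted line. *Timp1*, *Osmr* and *Socs3* lie above 1 on the vertical axis and near 0 on the horizontal one, and *Gfap* lies to the left.

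Of the 13 genes usually called pan-reactive in astrocytes, 7 are among the 10 genes described here. The genes of this list called higher were 5, 3 and 4 in the 3 comparisons. Besides *Serpina3n*, *Timp1* and *Osmr* these were *Cxcl10*, a chemokine for T cells (log2 ratios 1.46, 0.89 and 1.18), and *Lcn2* in the first comparison. *Hspb1*, a small heat shock protein, had ratios of 0.23, -0.07 and 0.24, and *Cp* (ceruloplasmin) of 0.12, 0.15 and 0.35.

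Lists of genes for inflammatory (A1) and ischaemic (A2) astrocytes held few calls. No A1 gene was called (0 of 10 compared), with *Serping1*, an inhibitor of complement C1, at 0.73, 0.61 and 0.51 and *Psmb8*, a subunit of the immunoproteasome, at 0.52, 0.29 and 0.22. Of the A2 genes only *Cd14*, the lipopolysaccharide co-receptor that is also in the macrophage list, was higher against each array (1.1, 1.19 and 1.05), and *Slc10a6*, a transporter of sulfated steroids, was on the low side (-0.83, -1.29 and -0.77). Over all pathway lists without the 10 genes, 2 of the 96 genes compared on all arrays, *Cd14* and *Myc*, were higher against each of the 3 others and 0 were lower, beside the 1.22% and 0.293% of all genes.

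**Figure D5:**
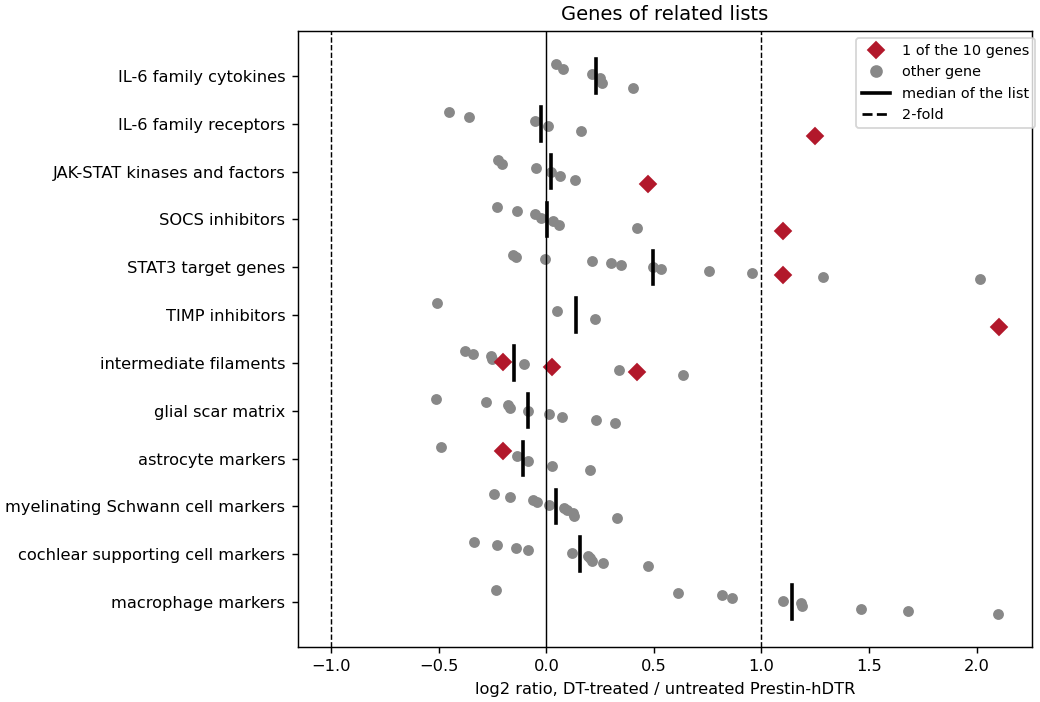
Log2 ratio of DT-treated to untreated *Prestin*-*hDTR* mice for the genes of 12 lists, with 1 point per gene, the median of a list as a black bar and the 2-fold limits dashed. Red diamonds are genes among the 10. They form the high end of the receptor, SOCS and TIMP lists, but not of the STAT3 target, intermediate filament and astrocyte lists. The macrophage markers have a median of 1.14.

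Markers of other cells that could hold these transcripts were compared in the same way. Of 10 markers of cochlear supporting cells 0 were called, with a summed intensity of 184 against 150 to 157 on the other arrays. Most of that sum is *Gjb2* and *Gjb6*. The median of the supporting cell list was 0.16, 0.12 and 0.10, with 6, 7 and 8 of the 10 above 0. *Epyc* (epiphycan, log2 ratios 0.47, 0.59 and 0.60) had the largest ratio of the first comparison. *Prox1* (-0.23, -0.26 and -0.61) lay on the low side, and *Sox2* (-0.14, -0.03 and 0.02) varied little. Of 6 astrocyte and 10 myelinating Schwann cell markers 0 were called, with sums of 68.1 against 59.8 to 65.4 and of 267 against 227 to 303. Most of the astrocyte sum is *Gjb6*, which is also a marker in the supporting cell list (log2 ratios 0.20, 0.22 and 0.13). The median of the astrocyte list was -0.11, 0.04 and -0.20, with 2, 4 and 2 of the 6 above 0. *Aqp4* (-0.49, -0.29 and -0.94) and *Aldh1l1* (-0.14, -0.09 and -0.25) lay on the low side. All markers of these 3 lists were well above background on all 4 arrays. Of 9 genes of repair Schwann cells, which form after nerve injury, only *Gap43*, a protein of growing axons and of such cells, was called. It was 2-fold higher against each array (1.59, 1.64 and 1.22, levels -2.64, -3.05, -3.01 and -1.42). *Gdnf*, a neurotrophic factor, had ratios of 0.43, 0.38 and 0.42. The median of the repair Schwann cell list was 0.11, 0.15 and 0.10. Its member *Olig1* lay on the low side (-0.32, -0.02 and -0.78). *Ngfr* (0.04, 0.14 and -0.08) and *Jun* (0.06, 0.17 and 0.10) varied little. The fibroblast and endothelial lists held no gene called higher or lower against all 3 arrays (0 of 6 and 0 of 5), but their sums were also highest in *Prestin*-*hDTR* mice with DT, at 129 against 103 to 110 and at 8.58 against 6.12 to 6.69. *Lum*, the matrix proteoglycan lumican of fibroblasts, had log2 ratios of 0.92, 0.95 and 0.96, and *Cldn5*, the tight junction protein of endothelium, of 0.56, 0.76 and 0.67. *Col1a1*, another fibroblast marker, went the other way (-0.48, -1.24 and -0.99) and was called lower against wild-type mice with DT. The median of the fibroblast list was 0.24, 0.21 and 0.14. Most of the endothelial sum is *Cldn5*, and the median of that list was 0.11, 0.08 and -0.07. *Pecam1* (0.03, -0.03 and -0.05) and *Tek* (-0.03, 0.04 and -0.08) hardly varied. All markers of both lists were well above background on all 4 arrays. Which of these cells, or of the macrophages, held the RNA of the 10 genes was not tested.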

How the data were processed

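The authors pooled RNA by group, hybridised it with Cy3 and deposited the output of Agilent Feature Extraction 11.5.1.1 (named in the submitters' processing notes and the file headers). The deposited intensity is linear and background-subtracted, without scaling between arrays. A deposited table of scaled intensity, each array divided by 1 constant, served as an alternative. The study's methods name a shift to the 75th percentile and a 2-fold screen.

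Control and outlier spots (149 to 228 per array) were left out, spots of a probe averaged, arrays divided by the 75th percentile and log2 taken. A gene was compared if either array compared had it well above background. A dim signal was raised to the lowest one well above background on its array, and the fold is then a lower bound, not given where that floor was the higher value. Of 29977 genes, 1 probe each was used, named by the RefSeq gene table. For 7696 of the 39429 probes, which that table did not name, the array file's own name was kept. The 10 members, 26 lists, 5 comparisons, alternatives and the naming rule were chosen with earlier results of these data known. The text names, besides the members, list genes 2-fold changed against each array, the 2 with the largest ratio per list and the 5 nearest to *Serpina3n*, and further genes of the lists that were chosen after their values were seen. A gene that this rule names is not reported here. Ratios were tested on simulated data with changes in bright probes only. No simulated probe was dim on some arrays and not on others, so the rule for lower bounds was not tested. Tools were limma 3.58.1 (R 4.3.3), pandas 2.3.3, matplotlib 3.10.9 and numpy 2.4.6 (Python 3.11.15).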

Additional observations from a re-analysis of the deposited data

Results flagged for a closer look

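For 2 of the 9 genes measured on all arrays, the log2 ratio of DT-treated to untreated mice had opposite signs in the 2 genotypes and was larger in both than the error from repeated spots (0.10 in log2). The wild-type ratios of both genes are within the larger error of the scanner software, about 0.20, so that their sign is not settled. *Timp1* had -0.17 in wild-type and 2.10 in *Prestin*-*hDTR* mice, a difference of 2.27. *Vim* had -0.13 and 0.42, a difference of 0.55. With 1 array per group the difference was not tested.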

How the results depend on the processing

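The 8 alternatives (normexp correction, scaling to the median, quantile normalization, no floor, no filter on dim probes, signal on all 4 arrays, the deposited scaled table, and the mean of all probes of a gene) reversed 0 of the results on the 10 genes and changed no 2-fold call of a gene that kept a value. With signal required on all 4 arrays *Serpina3n* drops out, and the median log2 ratio of the members between the *Prestin*-*hDTR* groups was 0.47. Of 381 values for single genes under alternatives, 375 kept their side of the 2-fold limit, or, for genes under 2-fold, stayed within the spot error of 0.10, and 6 moved by more (4 of them with the mean of all probes, for *Stat3* and *Cd44*). No paired analysis was possible because each group has 1 array and the labels carry no replicate numbers, and for the same reason no replicate could be left out. Signal over background limits *Serpina3n* and *Steap4*.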

Other observations

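A pair of STAT3 target genes, *Lcn2* and *Hp* (haptoglobin), varied among the control arrays more than the members did. *Lcn2* had levels of -0.25 and 0.83 in wild-type mice without and with DT and of -1.35 and 0.66 in *Prestin*-*hDTR* mice without and with it, and *Hp* of -0.67, 0.42, -2.19 and -1.23. Both were highest in DT-treated wild-type and lowest in untreated *Prestin*-*hDTR* mice. The summed intensity of 10 neutrophil markers, in units of the 75th percentile, was 37.9, 59.2, 13.7 and 22.6 in the same order, with the same highest and lowest array, and 9 or 10 of these markers were well above background on each array. *Timp1*, *Osmr* and *Socs3* did not vary in this way, with at most 1.18-fold between the 3 control arrays. The part of neutrophil RNA in the values of *Lcn2* and *Hp* was not tested.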
